A study of Mus musculus with 19 samples.

Results

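The libraries compared here came from 2 lines of mouse cells that lacked both the miR-290 and the miR-302 microRNA clusters, called double knockout (KO) colony 1 and colony 2. They were chosen by their labels, as the libraries of double KO iPSC, and make up 4 of the 19 libraries of the series, with 2 libraries a colony. Both lines were made by reprogramming mouse embryonic fibroblasts with Oct4, Sox2 and Klf4 and were grown with LIF and serum for more than 18 passages before collection. The series description states that the colonies of a KO genotype were derived, cultured, collected and prepared separately from each other, and excepts the wild-type (WT) controls from this. Each colony is 1 cell line, and nothing in the labels says whether its 2 libraries came from separate cultures. The p-values measure only spread between libraries of a group, pooled over the 9 groups of the series. They compare these lines, not derivations in general. The reference for how far a colony had moved was WT iPSC with 3 libraries, made with the same factors and grown in the same medium. Colonies 1 and 2 of miR-290 KO iPSC and of miR-302 KO iPSC, also with 2 libraries a colony, served as further pairs of lines of a single genotype, and the remaining libraries came from miR-290 KO and miR-302 KO embryonic stem cells (ESC).

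Both clusters are transcribed strongly in pluripotent cells, where their microRNAs repress inhibitors of the cell cycle and genes of the mesenchymal state. They recognise their targets mainly through the seed, a short stretch near the 5′ end. Lines derived from single colonies are known to differ in features that are copied from cell to cell, such as chromosome number, DNA methylation and the silencing of imprinted genes, which are expressed from only the maternal or the paternal allele.

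Both colonies lack the sequences that define the genotype, and these are shown because their shared seed is what the lines have lost. In RefSeq (GRCm38.p6), 26 mature microRNAs of the clusters were matched. The miR-302 cluster spans 563 bp at chr3:127545238-127545800 and the miR-290 cluster 2200 bp at chr7:3218638-3220837. Among those matched, the seed AAGUGCU was shared by 5 microRNAs from both clusters. The entries of miR-302a-3p and miR-292a-3p were not matched. These are given 5′ to 3′ with the seed, bases 2 to 8, in capitals.
miR-291a-3p: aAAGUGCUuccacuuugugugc
miR-294-3p: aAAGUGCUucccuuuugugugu
miR-295-3p: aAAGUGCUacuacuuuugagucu
miR-302b-3p: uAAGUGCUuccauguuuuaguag
miR-302d-3p: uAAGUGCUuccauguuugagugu
MicroRNAs themselves are not read by this assay, which captures the 3′ ends of polyadenylated RNA. Larp7, a regulator of transcription elongation, spans the miR-302 cluster and was looked at for its position. It lay at 251 and 262 CPM (reads scaled to a common library total) in colony 1, at 353 and 352 CPM in colony 2 and at 275 to 318 CPM in WT, with no overlap between the colonies, and did not pass the test (limma, adjusted p = 0.269). The gene AU018091 ends 49434 bp before the miR-290 cluster. It lay at 3.91 and 5.995 CPM in colony 1 and at 29.2 and 45.2 CPM in colony 2, against 120 to 163 CPM in WT. The libraries did not overlap, and the log2 difference, colony 1 minus colony 2, was -2.87 ± 0.44 (SE; limma, adjusted p = 0.00154). Both colonies were below WT, and colony 1 was the lower. The call was lost when only the 4 double KO libraries were fitted.

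Recovered reads came to 16094826 and 14344650 in colony 1, to 17767787 and 17036308 in colony 2, and to between 6433259 and 24980302 over the 19 libraries. The median absolute log2 difference over genes was 0.21 between the libraries of colony 1 and 0.19 between those of colony 2, the smallest of the within-group values, which reached 1.00 in miR-302 KO colony 1. Most markers of the pluripotent state were low in all 4 libraries. Of 30 in the matrix, 25 were called below WT and 1 above it in colony 1, and 24 below and 2 above in colony 2; Gdf3 was above WT in both colonies, Zfp57 in colony 2, and Nr0b1, L1td1 and Fgf4 were not called against WT in either. Nanog, a core pluripotency factor, lay at 1.76 to 2.79 CPM against 651 to 711 CPM in WT, and Pou5f1, which encodes Oct4, at 20.8 to 29.5 CPM against 506 to 744 CPM. The label iPSC is therefore used here as the submitters' name of the lines. The fibroblast markers Col1a1 and Thy1 were at or under 0.976 CPM in the 4 libraries, but other fibroblast markers were not. The 8 such markers in the matrix summed to 166 to 186 CPM in colony 1 and 64.9 to 82.4 CPM in colony 2. In WT the sum was 29.4 to 32.9 CPM. Xist, the RNA that coats the inactive X chromosome, lay at 599 to 648 CPM in all 4 and at 0 in the WT libraries, whereas the Y-linked gene Ddx3y was at or under 0.279 CPM in the 4 and at 7.93 to 8.69 CPM in WT. Both colonies thus carried the same pattern of sex-linked transcripts, and it differed from that of WT.

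Colony 1 and colony 2 differed in 357 genes, 2.79% of the 12778 tested. Of these, 131 were higher in colony 1 (1.03%) and 226 were higher in colony 2 (1.77%). A gene was called at a limma adjusted p under 0.05 and a log2 difference of at least 1. The median log2 difference of called genes was 2.56 in one direction and -2.55 in the other, and 23 and 45 genes, respectively, differed by at least 4 on the log2 scale. Levels of at least 10 CPM in both colonies were found for 32 of the genes higher in colony 1 and 55 of those higher in colony 2, so most called genes were under that level in at least 1 colony. Over all genes the median absolute log2 difference between single libraries of different colonies was 0.33 to 0.39, against 0.19 and 0.21 within a colony. Leaving out a library gave 176 or 188 calls without replicate 1 or 2 of colony 1, and 162 or 159 without replicate 1 or 2 of colony 2. The count was 615 without miR-302 KO colony 1 replicate 2, and 1184 with estimated library weights. With log2(CPM + 10), 144 genes were higher in colony 1 and 142 in colony 2. Fitting only the 4 double KO libraries gave 312 calls, of which 152 were among the 357.

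**Figure D1:**
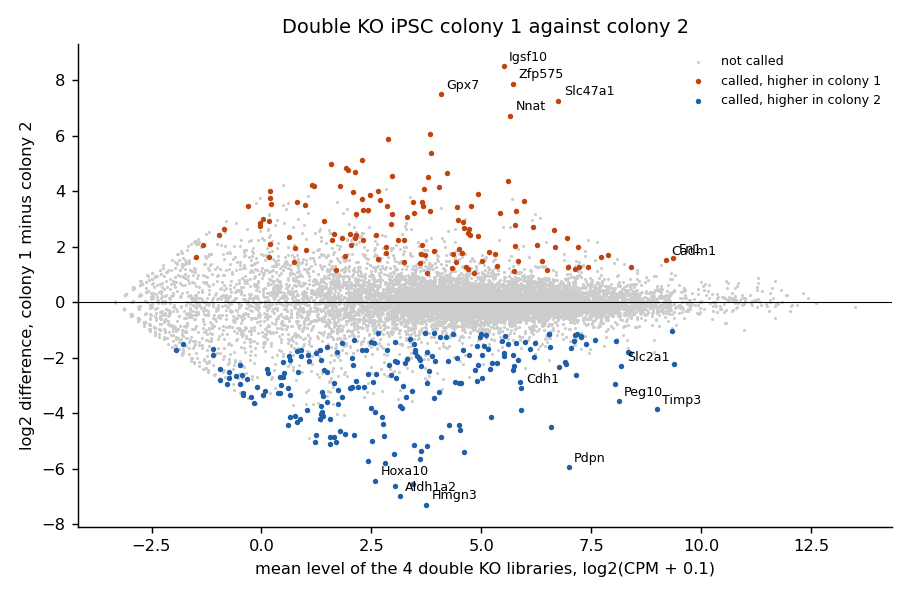
Each point is a gene, with the mean level of the 4 double KO libraries on the x axis, as log2(CPM + 0.1), and the log2 difference, colony 1 minus colony 2, on the y axis. Red and blue points are the 131 and 226 called genes; the largest differences, such as Igsf10 (8.51) and Hmgn3 (-7.30), lie far outside the grey cloud of genes that were not called.

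By the same test, 10 genes (0.0783%) were called between the colonies of miR-290 KO and 0 between those of miR-302 KO, where 2021 genes had an unadjusted p under 0.05 against 1435 between the double KO colonies. The count for miR-302 KO was 12 with a robust fit without trend and 4378 without miR-302 KO colony 1 replicate 1, so a count of 0 does not show that these colonies were alike. The size of differences did not follow these counts. The median absolute log2 difference was 0.31 between the double KO colonies, 0.39 between the miR-290 KO colonies and 0.51 between the miR-302 KO colonies. Between libraries of a colony it was 0.21 and 0.19 in double KO, 0.31 and 0.445 in miR-290 KO, and 1.00 and 0.44 in miR-302 KO. The larger medians of the miR-290 KO and miR-302 KO pairs thus came with a wider spread between libraries of a colony. The counts of the pairs were not tested against each other.

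Against WT, 4848 genes (37.9%) were called in colony 1 and 4511 genes (35.3%) in colony 2. These comparisons share the WT libraries. Among the 226 genes higher in colony 2, the WT level was above both colonies in 118, between them in 83 and below both in 25. Colony 1 was the farther from WT in 171 of these 226 genes (75.7%), against 53.9% of all genes tested. Among the 131 genes higher in colony 1, WT was between the colonies in 67, above both in 39 and below both in 25, and colony 1 was the farther in 56 (42.7%). For 25 genes, 12 higher in colony 1 and 13 higher in colony 2, the colonies were each called against WT and lay on opposite sides of it.

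Many of the largest differences were between a colony that expressed a gene and one in which it was at or near 0. At least 10 CPM in one colony and at most 0.5 CPM in the other was found for 5 genes expressed in colony 1 and 11 expressed in colony 2, and 7953 genes were at 10 CPM or more in both. Of the 24 largest called differences, 12 in each direction, 14 were of this kind. Others, such as Slc47a1, Nnat and Pdpn, kept a higher level in the lower colony. The 24 were picked by size, with at least 10 CPM required only in the higher colony, so the choice itself favours genes of this kind. Igsf10, a member of the immunoglobulin superfamily at chr3:59316735-59344438, lay at 107 and 75.2 CPM in colony 1, at 0.169 and 0.0587 CPM in colony 2 and at 1.65 to 1.93 CPM in WT. Its log2 difference was 8.51 ± 0.87 (SE, adjusted p = 5.19e-05), an increase over WT in colony 1 and a decrease in colony 2. Zfp575, a zinc finger gene on chromosome 7, lay at 96.4 and 113 CPM in colony 1, 0.225 and 0.411 CPM in colony 2 and 1.25 to 2.03 CPM in WT, the same arrangement (7.87 ± 0.57, adjusted p = 1.77e-06).

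Gpx7, an enzyme of the glutathione peroxidase family that works in the endoplasmic reticulum, had the smallest adjusted p of the genes tested (1.31e-08). It lay at 32.9 and 33.8 CPM in colony 1 and at 17.0 to 21.8 CPM in WT, whereas colony 2 had 2 reads in all, a 580-fold ratio (exact 95% interval 160 to 4798, counting error only). All other iPSC and ESC libraries of the series held it at 15.3 CPM or more, so here colony 2 was the line that stood apart. Rinl, a gene named for its likeness to Ras and Rab interactors, was likewise low in colony 2 alone, with 28.9 and 27.4 CPM in colony 1, 0.619 and 0.470 CPM in colony 2 and 42.4 to 49.8 CPM in WT (5.38 ± 0.32, adjusted p = 2.16e-07). Gadd45g, a gene of the growth arrest and DNA damage family, was at 24.5 and 31.4 CPM in colony 1 and 0.338 and 0.235 CPM in colony 2, with WT at 7.04 to 18.0 CPM.

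Other genes were raised in colony 1 above both colony 2 and WT. Slc47a1, which encodes an exporter of organic cations, lay at 179 and 249 CPM in colony 1, 1.18 and 1.29 CPM in colony 2 and 1.87 to 2.28 CPM in WT (7.26 ± 0.73, adjusted p = 4.16e-05). Mgst1, a microsomal glutathione transferase, lay at 101 and 83.5 CPM, 3.60 and 5.28 CPM, and 0.427 to 1.03 CPM, respectively (4.35 ± 0.99, adjusted p = 0.0264). Rspo3, a secreted enhancer of Wnt signalling, was at 15.04 and 13.5 CPM in colony 1 and at or under 0.801 CPM in colony 2 and WT (5.87 ± 1.02, adjusted p = 0.00432). Nnat, described with the imprinted genes, and Hs6st2, Ly75 and Pvt1 completed the 12 largest, the last 3 with log2 differences of 4.64, 4.53 and 4.51. The calls of Mgst1 were lost without any 1 of the 4 libraries, those of Rspo3 without colony 1 replicate 1 or colony 2 replicate 2, and that of Hs6st2 without colony 2 replicate 2.

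In the other direction, Hmgn3, a nucleosome-binding protein gene, had 1 read in colony 1 and lay at 24.1 and 29.2 CPM in colony 2, against 4.14 to 8.01 CPM in WT. The ratio was 810-fold, with a counting interval of 145 to 32020, and the log2 difference was -7.30 ± 0.55 (adjusted p = 2.25e-06). Aldh1a2, the enzyme that makes retinoic acid in embryos, had 0 reads in colony 1 and lay at 16.5 and 18.4 CPM in colony 2, at least 177-fold higher at a floor of 3 reads over colony 1 (-6.99 ± 0.62, adjusted p = 1.43e-05). WT lay between them at 2.72 to 3.59 CPM. Pdpn, podoplanin, a mucin-like surface protein, lay at 4.91 and 3.14 CPM in colony 1 and at 271 and 227 CPM in colony 2 (-5.94 ± 0.33, adjusted p = 1.56e-07). WT lay at 119 to 182 CPM, so both colony 2 libraries were above WT without passing the test (log2 difference from WT 0.72, adjusted p = 0.0698), and colony 1 was far below.

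Aga, a lysosomal enzyme that cleaves asparagine-linked sugars, had 3 reads in colony 1 and lay at 20.9 and 22.4 CPM in colony 2 and 9.02 to 15.8 CPM in WT (-6.54 ± 0.80, adjusted p = 0.000247). Spp1, osteopontin, lay at 0.311 and 0.349 CPM in colony 1, at 28.9 and 18.6 CPM in colony 2 and at 185 to 251 CPM in WT, so it was low in both colonies and lowest in colony 1. Pcsk6, a proprotein convertase, showed the same order, with 0.559 and 0.627 CPM, 30.8 and 22.1 CPM, and 78.6 to 134 CPM. Peg13 and Hoxa10, described with their groups, and Lrrc31, Rnf219, Fam73a and Aqp3 completed the 12 largest that were higher in colony 2, the last 4 with log2 differences of -5.78, -5.71, -5.48 and -5.36. The call of Aqp3 was lost without colony 1 replicate 1 or colony 2 replicate 2.

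**Figure D2:**
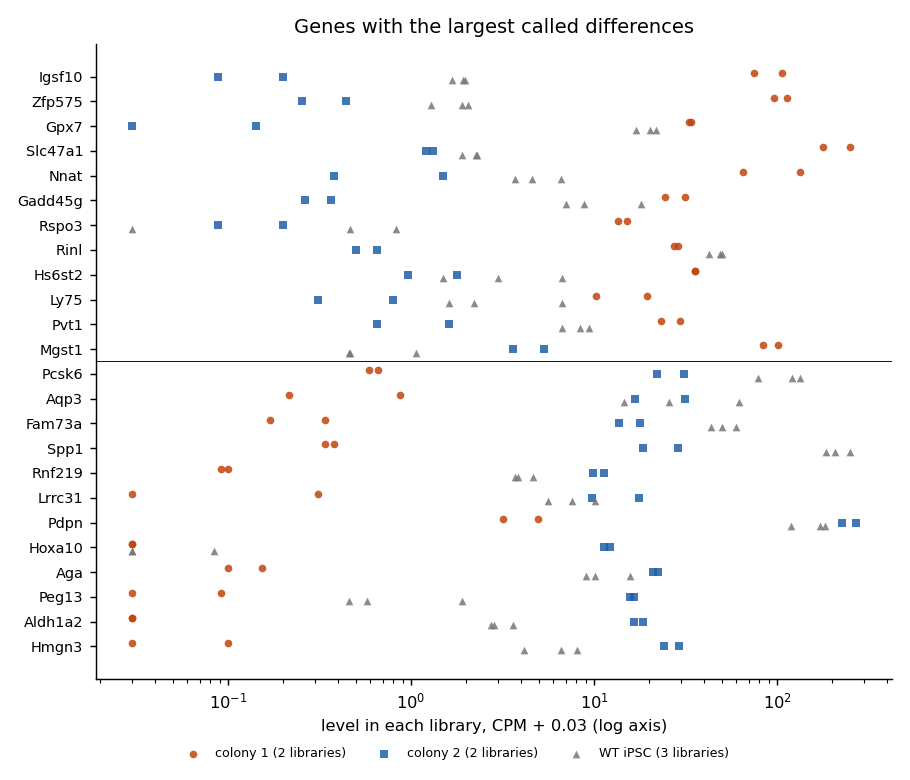
Level of the 24 genes with the largest called differences, 12 in each direction, in each library of colony 1 (circles), colony 2 (squares) and WT iPSC (triangles), as CPM + 0.03 on a log axis. For Gpx7 and Rinl the WT libraries lie beside colony 1, for Pdpn, Lrrc31 and Aqp3 beside colony 2, and for Igsf10, Zfp575 and Hmgn3 between the colonies.

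Start-site sequence is given for 3 of the genes that were expressed in only one colony, chosen after their values were seen, because they were among the largest differences and had a window on file. The letters in capitals are CG, the dinucleotide at which DNA methylation acts in mammals. RefSeq (GRCm38.p6) held a start-site window for 9 of the 16 such genes, from 250 bases before to 50 after the start, and some genes had more than 1 window. The dinucleotide CG, the only motif searched (it reads the same on both strands), occurred 3 to 50 times in these windows, with a median of 19, against a median of 20 over the 12381 windows of genes in the matrix. Aldh1a2 had 50, a number reached by 1.6% of all windows, Gpx7 had 19 (56.1%) and Igsf10 had 14 (70.6%). The windows of Spp1 and Lrrc31 had 3 each (95.8%). Each sequence runs 5′ to 3′ along the gene, with CG in capitals, and methylation was not measured.
Aldh1a2, chr9:71215539-71215838, plus strand: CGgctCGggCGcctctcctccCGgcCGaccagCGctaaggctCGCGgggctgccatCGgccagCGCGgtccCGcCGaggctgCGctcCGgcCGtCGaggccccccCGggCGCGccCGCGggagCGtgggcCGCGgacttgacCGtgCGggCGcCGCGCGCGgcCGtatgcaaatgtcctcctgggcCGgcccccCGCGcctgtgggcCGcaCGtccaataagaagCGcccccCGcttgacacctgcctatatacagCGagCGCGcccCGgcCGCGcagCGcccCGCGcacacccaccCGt
Gpx7, chr4:108406664-108406963, minus strand: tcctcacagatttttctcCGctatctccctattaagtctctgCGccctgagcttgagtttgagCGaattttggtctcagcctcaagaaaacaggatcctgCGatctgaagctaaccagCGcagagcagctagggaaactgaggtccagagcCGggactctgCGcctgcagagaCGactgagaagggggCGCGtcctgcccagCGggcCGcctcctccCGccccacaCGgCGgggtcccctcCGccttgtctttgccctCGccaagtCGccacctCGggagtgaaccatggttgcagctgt
Igsf10, chr3:59344207-59344506, minus strand: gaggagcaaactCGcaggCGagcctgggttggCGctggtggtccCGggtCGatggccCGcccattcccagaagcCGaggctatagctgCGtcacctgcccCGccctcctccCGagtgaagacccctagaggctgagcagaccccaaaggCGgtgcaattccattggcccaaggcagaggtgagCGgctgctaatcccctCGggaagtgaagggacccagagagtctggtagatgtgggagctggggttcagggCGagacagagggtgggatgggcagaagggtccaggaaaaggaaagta
Among the genes expressed in only one colony, windows thus ranged from poor to dense in CG.

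Among naive and general pluripotency genes, 5 of 30 in the matrix were called (16.7%, against 2.79% of all genes tested), and all 5 were higher in colony 2. The list's median log2 difference was -0.30, against -0.03 over all genes. Tfcp2l1, a transcription factor of the naive state, lay at 0.808 and 0.906 CPM in colony 1 and at 7.04 and 9.10 CPM in colony 2 (-3.04 ± 0.34, adjusted p = 9.96e-05), against 288 to 443 CPM in WT. Tbx3, another factor of that state, lay at 0.435 and 1.25 CPM, 7.26 and 7.34 CPM, and 150 to 242 CPM (-3.06 ± 0.36, adjusted p = 0.000179). Tdgf1, the Nodal co-receptor Cripto, lay at 2.11 and 4.11 CPM, 14.1 and 12.2 CPM, and 409 to 445 CPM (-2.10 ± 0.43, adjusted p = 0.0143).

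These 3 genes were far below WT in both colonies, and what differed was the remainder. Klf5 and Tcl1 were the other called members, with -1.25 and -1.50, and Tcl1 was at or under 0.47 CPM in all 4 libraries. Over the 30 members, log2 differences were positive for 11 and negative for 19. Klf2, picked after its values were seen, was higher in colony 1 without a call (1.41, adjusted p = 0.218). It lay at 22.5 and 21.3 CPM in colony 1 and at or under 12.2 CPM in colony 2, with no overlap. Pou5f1 (0.25), Sox2 (-0.69), Nanog (0.36) and Klf4 (-1.27) had log2 differences that did not pass the test, with adjusted p from 0.106 to 1. Klf4, a factor also used in the reprogramming, lay at 6.90 and 4.95 CPM in colony 1 and 17.4 and 11.6 CPM in colony 2. With log2(CPM + 10), which gives weak genes little weight, 0 members of this list were called. The call of Tbx3 was lost when only the 4 double KO libraries were fitted, and that of Tdgf1 there and without colony 1 replicate 1 or either replicate of colony 2.

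Epithelial junction, claudin and keratin genes gave 5 calls of 34 in the matrix (14.7%, against 2.79% of all genes), and all 5 were higher in colony 2. Cdh1, E-cadherin, the adhesion protein of epithelial and pluripotent cells, lay at 9.69 and 15.7 CPM in colony 1 and at 98.0 and 117 CPM in colony 2 (-3.10 ± 0.29, adjusted p = 2.08e-05). WT lay at 462 to 659 CPM, so the colonies formed a descending order with no overlap. Dsg2, a desmosomal cadherin, lay at 35.4 and 44.1 CPM in colony 1 and 262 and 229 CPM in colony 2 (-2.63, adjusted p = 3.49e-05), and here colony 2 was above the 65.5 to 91.5 CPM of WT. F11r, a tight junction protein, lay at 5.53 and 12.7 CPM in colony 1, 33.4 and 64.0 CPM in colony 2 and 64.7 to 135 CPM in WT.

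Dsp, desmoplakin, was at or under 0.186 CPM in colony 1 and at 3.83 and 5.52 CPM in colony 2, and Cldn3, a claudin, at or under 0.124 CPM and at 0.901 and 1.23 CPM. Other members did not pass the test, among them Ocln (-3.63), Ovol2 (-2.67) and Pkp3 (1.74), and Epcam was between 2.93 and 5.11 CPM in all 4 libraries against 58.1 to 97.7 CPM in WT. Ocln, Ovol2, Pkp3 and Epcam, like other members named without a call below, were picked after their values were seen. The call of Dsp was lost without any 1 of the 4 libraries, and that of Cldn3 without replicate 2 of either colony. In bulk libraries, fewer cells of a type and less RNA per cell cannot be told apart.

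The mesenchymal regulator and filament list held calls in the other direction. Of its 20 members in the matrix, 2 were called (10%, against 2.79% of all genes), both higher in colony 1, and the list's median log2 difference was 0.02. It was not tested against the epithelial list. Foxc1, a forkhead factor of mesenchyme, lay at 32.7 and 29.1 CPM in colony 1, 1.69 and 1.53 CPM in colony 2 and at or under 0.276 CPM in WT (4.15 ± 0.94, adjusted p = 0.026). Fn1, fibronectin, lay at 991 and 987 CPM in colony 1, 308 and 355 CPM in colony 2 and 517 to 668 CPM in WT (1.58 ± 0.32, adjusted p = 0.0145).

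Vim, vimentin, the intermediate filament of mesenchymal cells, lay at 3146 and 3007 CPM in colony 1 and 2124 and 1718 CPM in colony 2, and did not pass the test (0.68 ± 0.38, adjusted p = 0.608). Its level was at or under 156 CPM in WT. Zeb1, Zeb2 and Cdh2, regulators and the cadherin of the mesenchymal state, had log2 differences of 0.50, 0.74 and 0.00 and were also not called. Cd44, a receptor for hyaluronan, lay at 226 and 211 CPM in colony 1, 760 and 756 CPM in colony 2 and at or under 0.345 CPM in WT. The libraries of the colonies were far apart, but the pooled spread was wide (-1.80 ± 0.91, adjusted p = 0.521), and the gene was called when only the 4 double KO libraries were fitted. With log2(CPM + 1) or log2(CPM + 10), 4 members of the list were called, among them Cd44, which was higher in colony 2. Axl (-1.55), Lgals1 (-1.64) and Snai1 (-2.41) were also higher in colony 2 but did not pass the test. In all, log2 differences were positive for 11 members and negative for 9. The calls of Foxc1 and Fn1 were lost without any 1 of the 4 libraries.

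Of 25 fibroblast markers, 8 were in the matrix and 2 of these were called (25%, against 2.79% of all genes), both higher in colony 1. With 8 members, the share rests on these 2 genes. Fbn1, fibrillin 1, lay at 20.8 and 19.3 CPM in colony 1 and 1.13 and 2.05 CPM in colony 2, and Fbln2, fibulin 2, at 37.8 and 40.6 CPM and 3.77 and 6.52 CPM. Their log2 differences were 3.59 ± 0.86 (adjusted p = 0.0356) and 2.94 ± 0.67 (adjusted p = 0.0271). Summed over the list, fibroblast markers came to 166 to 186 CPM in colony 1, 64.9 to 82.4 CPM in colony 2 and 29.4 to 32.9 CPM in WT. Col1a1 and Thy1 stayed near 0, as given above, and the part of fibroblast transcripts in other differences was not tested. Both calls were lost without any 1 of the 4 libraries and in the fit of the 4 double KO libraries alone.

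Matrix genes moved in both directions, with 3 calls of 37 (8.11%, against 2.79% of all genes). Timp3, an inhibitor of matrix metalloproteinases, lay at 55.7 and 76.3 CPM in colony 1, 901 and 995 CPM in colony 2 and 3.26 to 5.18 CPM in WT (-3.86 ± 0.47, adjusted p = 0.000247). Nid1, nidogen, a basement membrane linker, went the other way, with 36.8 and 42.9 CPM in colony 1, 3.77 and 3.35 CPM in colony 2 and 39.5 to 88.3 CPM in WT (3.43 ± 0.47, adjusted p = 0.000629). Itgb3, integrin beta 3, was the remaining call, at or under 1.29 CPM in all 4 libraries. In the contractile list, 3 of 26 were called (11.5%): Myh10, a nonmuscle myosin heavy chain, at 222 and 197 CPM in colony 1 and 90.3 and 84.8 CPM in colony 2 (1.25), Myl9 (2.62) and, in the other direction, Tpm2 (-4.86). Cadm1, a cell adhesion molecule of the surface list, lay at 802 and 937 CPM in colony 1 and 304 and 303 CPM in colony 2, against 90.0 to 110.5 CPM in WT (1.51 ± 0.18, adjusted p = 0.000163). The call of Myl9 was lost without any 1 of the 4 libraries, that of Itgb3 without each but colony 1 replicate 1, and that of Myh10 without each but colony 1 replicate 2.

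Glycolysis and hypoxia genes gave 4 calls of 30 (13.3%, against 2.79% of all genes), all higher in colony 2, with a list median of -0.54. Both colony 1 libraries lay below both colony 2 libraries for 19 of the 30 members in the matrix, whereas 31.2% of all genes had that order. Slc2a1, the glucose transporter GLUT1, lay at 113 and 84.4 CPM in colony 1, 507 and 457 CPM in colony 2 and 169 to 259 CPM in WT (-2.30 ± 0.47, adjusted p = 0.0134). Ndrg1, a gene known to respond to hypoxia, lay at 8.82 and 12.1 CPM, 49.1 and 51.1 CPM, and 14.0 to 20.2 CPM (-2.27 ± 0.46, adjusted p = 0.014). Colony 2 was above WT for both genes.

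Ldha, lactate dehydrogenase A, lay at 488 and 371 CPM in colony 1, 878 and 858 CPM in colony 2 and 1068 to 1249 CPM in WT (-1.03, adjusted p = 0.0405), so here both colonies were below WT. Aldoa, aldolase, was the remaining call (-1.303 ± 0.30, adjusted p = 0.0272), on the deposited log2 values only, since its reads could not be recovered. Members without a call included Pgk1 (-0.88), Pkm (-0.74), Hk2 (-0.81) and Pdk1 (0.62). Summed over the 28 members with recovered reads, which leaves out Aldoa, the list came to 4221 to 4637 CPM in colony 1. The sum was 7272 to 7405 CPM in colony 2 and 8949 to 9648 CPM in WT. Under median-of-ratios scaling 2 members were called. The calls of Slc2a1, Ndrg1 and Aldoa were lost without any 1 of the 4 libraries. Medium, density and oxygen are not recorded per library, and their part was not tested.

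Trophoblast genes gave 4 calls of 19 (21.1%, against 2.79% of all genes), all higher in colony 2. Cdx2, a factor of trophectoderm and of the posterior embryo, lay at 0.746 and 0.279 CPM in colony 1, 20.8 and 21.9 CPM in colony 2 and 1.90 to 5.52 CPM in WT (-5.15 ± 0.83, adjusted p = 0.00249). Tfap2c, a factor of trophoblast and germ cells, lay at 3.04 and 1.25 CPM in colony 1, 18.5 and 19.6 CPM in colony 2 and 39.5 to 121 CPM in WT (-3.19, adjusted p = 0.0447). Peg10, an imprinted gene of retrotransposon origin needed in the placenta, lay at 45.2 and 40.5 CPM, 581 and 449 CPM, and 35.3 to 154 CPM (-3.58 ± 0.82, adjusted p = 0.0277). Plet1 was the fourth call, at or under 1.94 CPM in all 4 libraries. With log2(CPM + 1) or log2(CPM + 10), 2 members were called, and the calls of Tfap2c and Peg10 were lost without any 1 of the 4 libraries, that of Tfap2c under 9 of 14 alternatives in all.

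**Figure D3:**
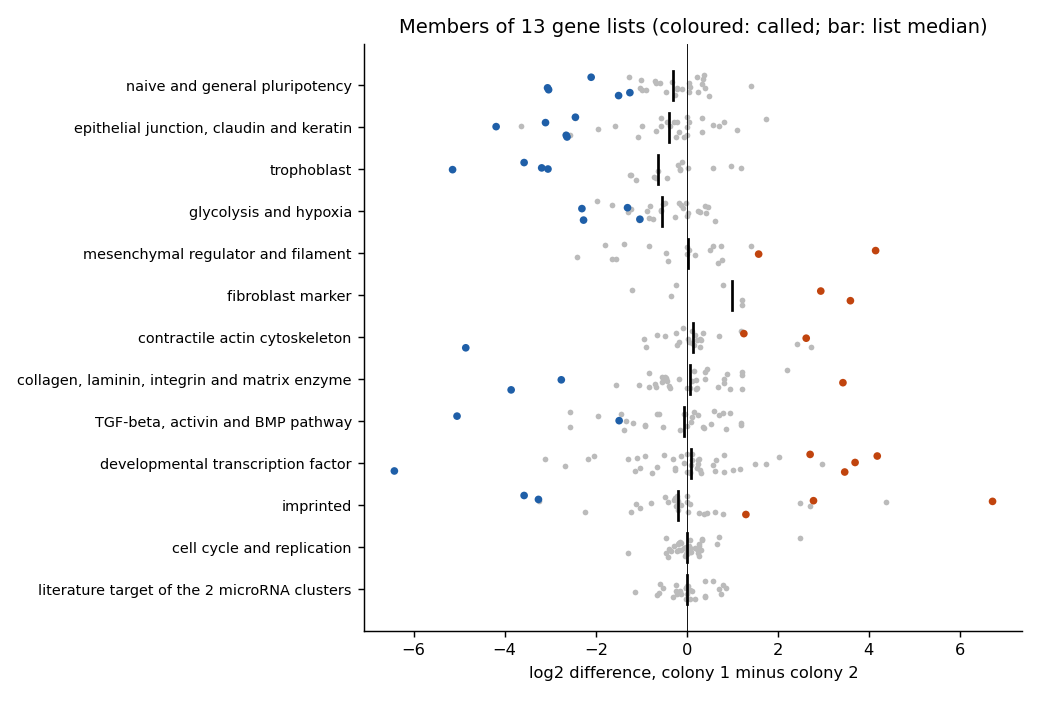
Log2 difference, colony 1 minus colony 2, of each member of 13 gene lists, with called members in red (higher in colony 1) or blue (higher in colony 2), other members in grey and the list median as a bar. All called pluripotency, epithelial, trophoblast and glycolysis genes are blue, whereas developmental transcription factors and imprinted genes hold calls of both colours and the cell cycle and microRNA target lists hold 0.

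Imprinted genes gave 5 calls of 34 (14.7%, against 2.79% of all genes), 3 higher in colony 1 and 2 higher in colony 2. Nnat, neuronatin, expressed from the paternal allele, lay at 64.8 and 134 CPM in colony 1, 1.46 and 0.352 CPM in colony 2 and 3.66 to 6.57 CPM in WT (6.72 ± 0.64, adjusted p = 2.79e-05). Plagl1, a zinc finger factor, lay at 103 and 86.0 CPM in colony 1, 13.4 and 13.7 CPM in colony 2 and 81.7 to 115 CPM in WT (2.78 ± 0.32, adjusted p = 0.000123), so colony 1 was at the WT level and colony 2 was not.

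On chromosome 6, Peg10 (-3.58), Sgce (0.39) and Ppp1r9a (1.298) lie together between position 4674350 and position 5165661, and Peg10 and Ppp1r9a were called in opposite directions. Ppp1r9a lay at 56.4 and 59.5 CPM in colony 1 and 20.9 and 26.2 CPM in colony 2. On distal chromosome 2, Nespas, an antisense RNA of the Gnas locus, had 0 reads in colony 1 and lay at 0.732 and 1.88 CPM in colony 2 (-3.26 ± 0.71, adjusted p = 0.0205), while Gnas itself was not called (0.61). Counting by strand is not stated, so reads of overlapping genes may be mixed. Peg13, a noncoding RNA known to be imprinted that was outside the list, had 1 read in colony 1 and lay at 15.7 and 16.6 CPM in colony 2, against 0.427 to 1.86 CPM in WT (-6.61 ± 0.75, adjusted p = 0.000124). The Meg3 and Rian RNAs of chromosome 12 were at or under 0.124 CPM in all 4 libraries, with 144 to 259 CPM of Meg3 in WT, so that low level was common to both lines. The call of Ppp1r9a was lost without any 1 of the 4 libraries, and that of Nespas without each but colony 2 replicate 1.

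Developmental transcription factors gave 5 calls of 46 (10.9%, against 2.79% of all genes), 4 higher in colony 1 and 1 higher in colony 2. Within the Hoxa cluster, calls ran in opposite directions. Hoxa10 had 0 reads in colony 1 and lay at 11.3 and 12.2 CPM in colony 2, at least 119-fold higher at the floor of 3 reads, with WT at or under 0.0543 CPM (-6.43 ± 1.15, adjusted p = 0.0057). Hoxa7 had 0 reads in colony 2 and lay at 1.74 and 1.11 CPM in colony 1 (3.47 ± 0.67, adjusted p = 0.00943). Hoxa5, between 27.7 and 44.5 CPM in the 4 libraries, did not pass the test (0.25).

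Over all 19 Hox genes in the matrix, 2 were called higher in colony 1 and 1 in colony 2 (15.8%, against 2.79% of all genes). Hoxb9 lay at 5.97 and 7.04 CPM in colony 1 and at 0.281 and 0.176 CPM in colony 2 (4.18 ± 1.00, adjusted p = 0.0352). Hoxc9 lay at 3.42 and 3.28 CPM in colony 1 and 24.2 and 37.6 CPM in colony 2, without a call (-3.12, adjusted p = 0.083). Bcl11a (3.70) and Sox6 (2.71), the latter at 112 and 139 CPM in colony 1 and 17.9 and 20.1 CPM in colony 2, were the other calls. Nr2f2, an orphan nuclear receptor at 1.45 to 1.60 CPM in WT, lay at 74.1 and 68.7 CPM in colony 1 and 153 and 160 CPM in colony 2, without a call (-1.13, adjusted p = 0.707). The calls of Hoxb9 and Bcl11a were lost without any 1 of the 4 libraries and under 7 of 14 alternatives each, and those of Hoxa10 and Hoxa7 without colony 1 replicate 1 or either replicate of colony 2.

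Among TGF-beta, activin and BMP genes, 2 of 32 were called (6.25%, against 2.79% of all genes), both higher in colony 2. Inhbb, an activin subunit, was at or under 0.124 CPM in colony 1 and at 5.57 and 6.81 CPM in colony 2 (-5.05 ± 1.23, adjusted p = 0.0388). Nodal, the ligand that sustains pluripotency with activin, lay at 1.06 and 2.37 CPM and at 2.93 and 7.51 CPM, against 107 to 126 CPM in WT (-1.49 ± 0.38, adjusted p = 0.0484). Il6st, the LIF co-receptor gp130, lay at 31.9 and 37.4 CPM in colony 1, 90.1 and 96.3 CPM in colony 2 and 29.8 to 33.3 CPM in WT (-1.43 ± 0.28, adjusted p = 0.0113). Spry2, a feedback inhibitor of FGF signalling, lay at 21.1 and 19.4 CPM in colony 1 and 74.1 and 68.5 CPM in colony 2 (-1.81 ± 0.39, adjusted p = 0.0181). The calls of Inhbb, Il6st and Spry2 were lost without any 1 of the 4 libraries, and that of Nodal under 8 of the 15 alternatives run, among them leaving out colony 1 replicate 1 or colony 2 replicate 2, another scaling, both added constants, a robust fit and the 4 libraries alone.

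Of 29 genes named in the literature as targets of the clusters, 0 were called by limma at the adjusted threshold. A share of 0% in a list of this length is near the 2.79% over all genes, so the count says nothing particular about the targets. The members' log2 differences ran from -1.13 to 0.85. Cdkn1a, the cell cycle inhibitor p21, lay at 760 and 992 CPM in colony 1, 863 and 797 CPM in colony 2 and 160 to 227 CPM in WT (0.06 ± 0.28). Lats2, a Hippo kinase, lay at 140 and 149 CPM and at 117 and 101 CPM, against 7.05 to 11.03 CPM in WT (0.40 ± 0.93). Tgfbr2, the TGF-beta type II receptor, lay at 19.8 and 19.4 CPM and at 21.8 and 17.3 CPM, against at most 1.07 CPM in WT (0.01 ± 1.19). The libraries of the colonies overlapped for Cdkn1a and Tgfbr2, but the standard errors leave room for differences of more than 1 on the log2 scale for Lats2 and Tgfbr2.

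The lists of cell cycle and replication (41 genes in the matrix), DNA methylation (18), Polycomb and chromatin (28), p53 and apoptosis (28), Hippo (23) and microRNA processing (20) also held 0 calls at the adjusted threshold, which for lists this short is again near the 2.79% over all genes. Ly6a, the surface antigen Sca-1, was near 0 in WT and at 1351 and 1520 CPM in colony 1 and 1218 and 1134 CPM in colony 2 (0.28 ± 1.78). Gdf3, a TGF-beta family ligand, lay at 490 and 547 CPM and at 364 and 437 CPM, both above the 129 to 163 CPM of WT (0.37 ± 0.20, adjusted p = 0.589). Myof, myoferlin, a membrane repair protein, differed, with 16.6 and 21.2 CPM in colony 1 and 72.0 and 73.2 CPM in colony 2 (-1.95 ± 0.29, adjusted p = 0.00119), both above the 4.51 to 5.87 CPM of WT.

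The difference between the colonies also had a chromosomal pattern. Over genes of at least 10 CPM, the median log2 difference was 0.45 for the 690 genes of chromosome 2 and 0.24 for the 731 genes of chromosome 11, whereas the medians of the other 18 chromosomes lay between -0.20 and -0.01. Relative to those chromosomes, chromosome 2 was higher in colony 1 by 0.56 on the log2 scale (1.48-fold) and chromosome 11 by 0.35 (1.27-fold). On chromosome 2, 90.1% of the genes were higher in colony 1, and 78% on chromosome 11.

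Against mean WT and relative to the other chromosomes, chromosome 2 lay at 0.52 and 0.53 in the colony 1 libraries and at -0.06 and -0.07 in the colony 2 libraries, and at -0.10 to 0.01 in the other 15 libraries. Chromosome 11 lay at 0.37 and 0.38 in colony 1, at 0.00 and 0.02 in colony 2 and at -0.13 to 0.10 elsewhere. Only the colony 1 libraries stood apart from the 19, on both chromosomes. The shift on chromosome 2 was spread along its length, with medians of 0.40 to 0.55 in 10 consecutive blocks of 69 genes, and medians of 0.14 to 0.35 in 10 blocks of chromosome 11. In the miR-290 KO and miR-302 KO pairs, the medians were 0.09 and -0.11 for chromosome 2 and 0.16 and -0.08 for chromosome 11. These lay within the range of the other chromosomes. In the miR-290 KO pair, chromosome 18 stood apart at -0.39, whereas its other chromosomes lay between -0.03 and 0.20. A chromosome with a shifted median was thus not found in the double KO pair alone.

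The share of called genes on chromosome 2 (3.01%) and chromosome 11 (2.38%) was near that of all genes, 2.79%, but the directions were 20 higher against 10 lower in colony 1 and 15 against 10, respectively. Without the genes of both chromosomes, 96 genes were called higher in colony 1 and 206 higher in colony 2. Nnat, Ly75, Fbn1 and Myl9 lie on chromosome 2, and Slc47a1, Hoxb9, Bcl11a and Myh10 on chromosome 11. Tfap2c and Nespas on chromosome 2 and Itgb3 on chromosome 11 were called lower in colony 1. Cd44, also on chromosome 2, was lower in colony 1 without a call. Vim and Zeb2, higher in colony 1 without a call, lie on chromosome 2 too. DNA copy number was not measured, and its part in these differences was not tested.

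**Figure D4:**
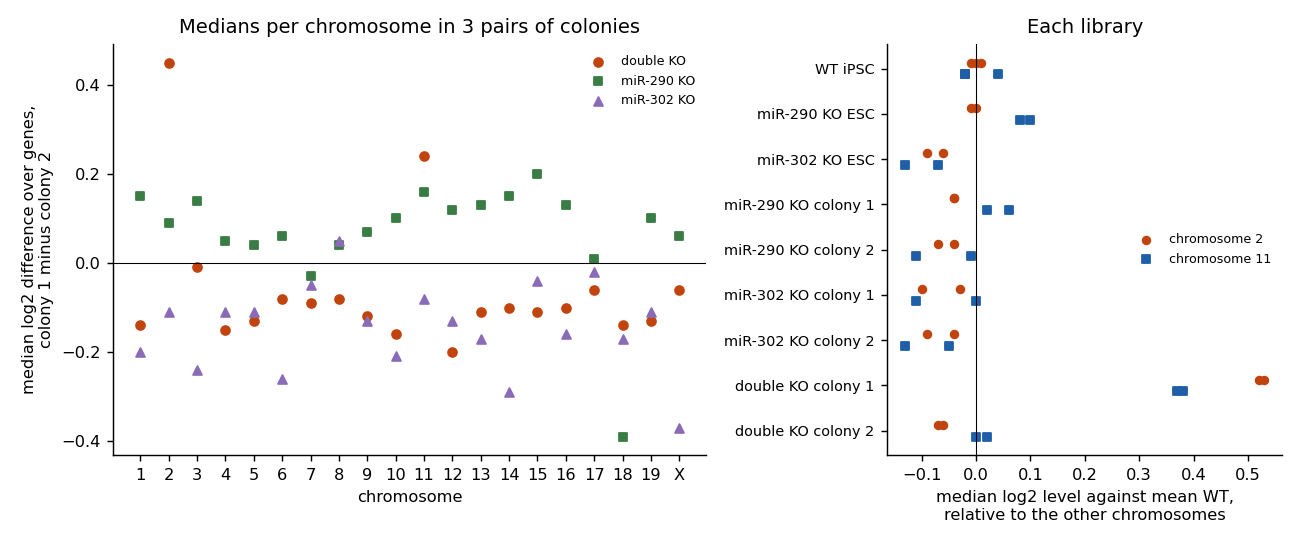
Left, the median log2 difference, colony 1 minus colony 2, over genes of each chromosome for the double KO (circles), miR-290 KO (squares) and miR-302 KO (triangles) pairs; right, the median log2 level of chromosomes 2 (circles) and 11 (squares) in each of the 19 libraries against mean WT, relative to the other chromosomes. Chromosomes 2 (0.45) and 11 (0.24) stand out in the double KO pair, and the colony 1 libraries lie to the right of all others.

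Chromosome 3, whose median was near 0, was made of stretches that moved in opposite directions. In consecutive blocks of 20 genes of at least 10 CPM, a division chosen after the values were seen, the medians lay between -0.09 and 0.09 in the first 8 blocks. They lay at 0.55, 0.31, 0.50 and 0.44 in the next 4, from position 89209081 to position 96706070, where 73 of 80 genes were higher in colony 1. They were -0.36 to -0.07 in the 6 blocks that followed, and -0.84 and -0.50 in the last full blocks, from position 137867675 to position 159529955, where 5 of 40 genes were higher in colony 1. Against WT, the block of 0.55 lay at 0.74 and 0.93 in colony 1 and at -0.06 and 0.03 in colony 2. The block of -0.84 lay at -0.56 and -0.57 in colony 1 and at 0.07 and -0.05 in colony 2.

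Over all windows of 11 neighbouring genes outside chromosomes 2 and 11, the lowest and the highest medians both lay on chromosome 3. The lowest, -1.29, ran from Rap1gds1 to Bcl10 at chr3:138925897-145934366, with all 11 genes lower in colony 1. The highest, 0.94, ran from Rusc1 to Slc50a1 at chr3:89083975-89270591, with all 11 genes higher in colony 1. Between the libraries of a double KO colony, no window passed -0.42 or 0.40. Between colonies, windows ran from -1.17 to 0.88 in the miR-290 KO pair and from -1.22 to 0.60 in the miR-302 KO pair. Windows nearly as far from 0 were thus found between other colonies, where libraries of a colony also differed more. Between those libraries the median absolute log2 difference over genes was 0.31 and 0.445 in miR-290 KO, and 1.00 and 0.44 in miR-302 KO. Windows between libraries of a miR-290 KO or miR-302 KO colony were not computed.

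Called genes lay in the same stretches, and not all followed the order of the blocks against WT. Hs2st1, a heparan sulfate sulfotransferase, lay at 23.1 and 21.6 CPM in colony 1 and 82.6 and 83.0 CPM in colony 2, against 26.7 to 28.8 CPM in WT, so here colony 2 was the line above WT. Fam73a was called with its 3 next neighbours in the matrix, Usp33, Zzz3 and Pigk, the longest run of neighbouring called genes (chr3:152273459-152842926). Fam73a lay at 0.311 and 0.139 CPM in colony 1 and 17.7 and 13.7 CPM in colony 2, against 43.5 to 59.4 CPM in WT.

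The neighbours of Fam73a were lower by less: Usp33 lay at 13.5 and 12.1 CPM in colony 1 and 27.1 and 29.3 CPM in colony 2 (-1.14), Zzz3 at 30.6 and 25.2 CPM and 68.3 and 60.3 CPM (-1.21), and Pigk at 9.82 and 9.27 CPM and 20.0 and 21.4 CPM (-1.11). The next gene on either side in the matrix, Nexn (0.46) and St6galnac3 (-0.48), was weakly expressed and not called. Fdps, an enzyme of cholesterol synthesis at chr3:89093588-89101967, lay in the window with the highest median, just before the blocks that were higher in colony 1, with 121 and 129 CPM against 56.3 and 56.1 CPM in colony 2 (1.15 ± 0.23, adjusted p = 0.0112). It was the single call among 22 cholesterol synthesis genes, whose median was 0.23, and it was lost without any 1 of the 4 libraries. Usp33, Zzz3, Pigk and Hs2st1 were named after their values were seen.

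**Figure D5:**
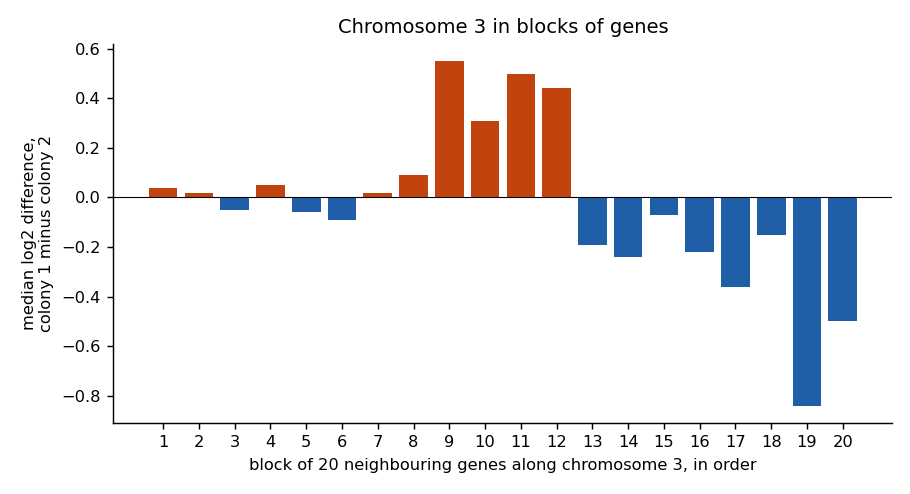
Bars give the median log2 difference, colony 1 minus colony 2, of each block of 20 neighbouring genes of at least 10 CPM, in order along chromosome 3. Blocks 9 to 12 are above 0 (0.31 to 0.55) and blocks 19 and 20 are at -0.84 and -0.50.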

How the data were processed

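Libraries were prepared from total RNA with QuantSeq 3′ FWD and sequenced as single-end reads of 50 bp, per the labels' protocols. The submitters' processing notes name Trim Galore 0.66, STAR, Salmon 1.4.0, FastQC 0.11.9, MultiQC, limma, DESeq2 1.34.0 and mm10, without roles. The authors deposited a matrix of log2 values for 12778 genes; from the values, these are log2 CPM with a prior count, shifted by 1 constant per gene, so differences between columns were used. Another deposited table of the authors, of double KO against WT, holds a mean normalized count per gene and served only to check the recovered reads. Whole reads, and CPM from them, were recovered for 12235 genes (95.8%), where 99.7% of the values were whole within 0.02 reads, and the matrix held 6 columns of libraries that were not used. Intervals and floors made from reads cover counting error only, because PCR copies of a molecule cannot be told from separate molecules here.

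The deposited log2 values were fitted with limma 3.58.1 under R 4.3.3, with a trend, over all 19 libraries in 9 groups (10 residual degrees of freedom), with Benjamini-Hochberg adjustment over all genes. The procedure was tested on simulated data. Count models were not run, because the deposited values are not counts. An exact permutation test of 2 against 2 libraries cannot go below p = 0.333. Named genes were the 12 largest called differences in each direction with at least 10 CPM in the higher colony, non-overlapping libraries and a symbol that is not a clone name, up to 3 called members of each gene list in each direction, and a fixed list of markers; others are said to be picked after their values were seen. The members and lists were chosen with earlier results of these data known. Alternatives were library selection, scaling, a minimum level, added constants, a robust fit, library weights and a replicate block. Gene positions, microRNAs and start-site windows came from RefSeq (GRCm38.p6).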

Additional observations from a re-analysis of the deposited data

Results flagged for a closer look

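For 11 of the named genes, the 2 colonies lay on opposite sides of WT, each called against it, and differed from each other by the same test. Higher in colony 1 than in colony 2 were Igsf10 by 8.51 on the log2 scale (5.55 above WT in colony 1, and -2.96 from WT in colony 2), Zfp575 by 7.87 (5.88 and -1.99) and Nnat by 6.72 (4.28 and -2.43). Ly75, a lectin-type surface receptor, differed by 4.53 (2.28 and -2.25), Pvt1, a noncoding RNA next to Myc, by 4.51 (1.72 and -2.80) and Piwil2, a germline Argonaute protein, by 4.07 (2.44 and -1.63). The reverse order was found for Nefl, a neurofilament gene, at -3.46 (-1.93 from WT in colony 1 and 1.52 in colony 2), Cdx2 at -5.15 (-2.28 and 2.87), Peg13 at -6.61 (-2.43 and 4.18), Aldh1a2 at -6.99 (-4.47 and 2.52) and Hmgn3 at -7.30 (-5.14 and 2.16). Both differences from WT rest on the same 3 WT libraries. The calls of Nnat, Ly75, Pvt1 and Piwil2 were lost when only the 4 double KO libraries were fitted.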

How the results depend on the processing

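Of the 70 named genes that were called between the double KO colonies, 24 kept the call under every alternative run for them, and of the 20 that were not called, Cd44, Klf4 and Nr2f2 passed under at least 1. No named gene changed direction past the threshold. The count of called genes, 357, was 286 to 356 with a minimum level, another scaling, added constants of 1 or 10, a robust fit or only the 4 libraries. It was 1184 with estimated library weights, 159 to 188 when 1 library was left out, and 615 without miR-302 KO colony 1 replicate 2, an alternative chosen after seeing the data. Leaving out a library meant that fewer libraries entered the fit, whereas the weighted fit kept all 19. Its weights were 0.13 for the libraries of miR-302 KO colony 1 and 2.19 to 2.58 for the double KO libraries. The cause of these moves was not tested. The count for the miR-290 KO pair, 10, was 19 with log2(CPM + 10), 6 with a robust fit without trend, 59 with library weights and 4 to 7 with 1 library left out. The count for the miR-302 KO pair, 0, was 12 with the robust fit and 0 to 4378 with 1 library left out, the highest without colony 1 replicate 1. Against WT, log2(CPM + 10) gave 2518 calls in colony 1 and 2291 in colony 2. Same-numbered libraries of the double KO colonies deviated together only weakly (r = 0.07 over genes). With 2 libraries a colony this is a single comparison, so it cannot exclude a pairing. The main fit used no pairing, and a replicate block gave 321 calls between the colonies. With 2 libraries of 1 line a side, other derivations of this genotype were not measured.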

Other observations

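Outside the groups above, Apoe, the lipid carrier apolipoprotein E, lay at 145 and 148 CPM in colony 1 and at 401.5 and 372 CPM in colony 2, against 1009 to 1243 CPM in WT (log2 difference -1.40 ± 0.20, limma, adjusted p = 0.000959). Sfrp1, a secreted antagonist of Wnt ligands, lay at 35.2 and 52.8 CPM in colony 1, at 185 and 215 CPM in colony 2 and at 249 to 297 CPM in WT (-2.21 ± 0.29, adjusted p = 0.000429). Colony 2 was the nearer to WT for both. Laptm5, a lysosomal membrane protein of blood cells, went the other way, with 41.7 and 59.6 CPM in colony 1, 8.33 and 10.6 CPM in colony 2 and 43.7 to 73.8 CPM in WT (2.38 ± 0.35, adjusted p = 0.00106). Zic2, a zinc finger factor of the formative state, lay at 34.1 and 28.2 CPM in colony 1, 9.29 and 9.27 CPM in colony 2 and 103 to 137 CPM in WT (1.72 ± 0.29, adjusted p = 0.00299). Colony 1 was the nearer to WT for these. Olig2, a factor of the neural tube, lay at 0.311 and 0.139 CPM in colony 1, 11.3 and 10.8 CPM in colony 2 and 19.9 to 32.3 CPM in WT (-4.99 ± 0.62, adjusted p = 0.000286). The calls of Sfrp1 and Laptm5 were lost when only the 4 double KO libraries were fitted, and that of Olig2 with log2(CPM + 10).

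Large families had shares of calls not far from the 2.79% over all genes. Among 306 numbered zinc finger genes, 2 were called higher in colony 1 and 4 higher in colony 2 (1.96%), among 209 solute carriers 3 and 6 (4.31%), and among 77 cytosolic ribosomal protein genes 0 in either direction. Neighbouring genes called in 1 direction formed 13 runs with 28 genes in all, and only the run from Fam73a to Pigk on chromosome 3 was longer than 2 genes.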
